A study of Caenorhabditis elegans with 8 samples.

Results

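Of the 46778 genes in the deposited tables, 6 genes of the *C. elegans* innate response were followed across all 8 strains of the study, namely *irg-5*, *irg-4*, *F55G11.8*, *dod-17*, *dod-22* and *dod-24*. They were chosen by name, with measured values of the *mbl-1(tm1563)* comparisons of these data in view, and no numeric cut-off bounded the choice. Their values in those comparisons are therefore given as a description with no test, and nothing is drawn from the number of them that were lower there. RNA came from whole L4 animals that had been synchronized as L1 larvae and grown on *E. coli* OP50. Each strain had 2 biological replicates, and with 2 against 2 libraries an exact permutation test of a single gene cannot go below p = 0.333.

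The *mbl-1(tm1563)* strain carried a deletion of an exon that all *mbl-1* isoforms share, here also written *mbl-1(-)*, and its background was the wild type. *mec-7(u278) mbl-1(tm1563)*, called the *mec-7(u278)* double mutants, was set against *mec-7(u278)*, a neomorphic allele of a touch receptor neuron β-tubulin gene. *mbl-1(tm1563); mec-3(unk206)*, called the *mec-3(unk206)* double mutants, was set against *mec-3(unk206)*, which makes the *mec-3a* isoform alone. The remaining strains were *mec-3(syb8382)*, which lacks *mec-3a*, and *mec-3(u184)*, a *mec-3* null. All strains carried a *mec-17p::TagRFP* reporter of the touch receptor neurons, inserted as *uIs134* on chromosome V in *mec-3(syb8382)* and *mec-3(u184)* and as *uIs115* on chromosome IV in the remaining strains. Each pair of an *mbl-1(-)* strain and its background thus shared its reporter.

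The worm has no adaptive immune cells, and the epithelium of its intestine answers infection by switching on secreted and lysosomal effector genes. Many of these genes are driven by the p38 MAP kinase cascade, in which the adaptor TIR-1 acts through the kinases NSY-1, SEK-1 and PMK-1. Proteins with a CUB-like domain are a large family among such effectors. The *irg* genes are named for their response to infection, and *dod* stands for downstream of DAF-16, the FOXO factor of the insulin pathway. MBL-1, the worm Muscleblind, is an RNA binding protein known for its part in splicing.

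The genes are protein-coding, and none shares exon sequence with another gene in the WBcel235 annotation. *irg-5* (WBGene00009429) lies on chromosome V from 13737010 to 13738474 on the minus strand. *irg-4* (WBGene00008584) lies on chromosome IV from 12435833 to 12438236 on the plus strand. The other 4 lie in a stretch of 38.24 kb of chromosome IV that begins 501.9 kb beyond the end of *irg-4*. In the order of the chromosome they are *dod-24* (WBGene00007875, 12940106 to 12941354, minus strand), *F55G11.8* (WBGene00010128, 12962808 to 12964645, plus strand), *dod-22* (WBGene00010125, 12965374 to 12967392, plus strand) and *dod-17* (WBGene00010745, 12976303 to 12978343, plus strand).

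Levels were taken as read counts scaled to the gene total of each library (CPM), with gene totals between 22296336 and 23180583 per library. Per kilobase of exon (RPKM), which allows genes to be set side by side, the median level over the 16 libraries was 77.2 for *irg-4*, 65.3 for *irg-5*, 44.6 for *dod-17*, 43.9 for *F55G11.8*, 42.0 for *dod-24* and 10.4 for *dod-22*. All 6 were read in every library, the lowest value being 3.33 CPM of *dod-22*, and all 6 passed the filter on low counts in each comparison. The libraries fell into 2 kinds. In the 4 strains with no *mec-3* allele, 50.8% to 51.3% of the stranded counts lay on one strand, as in a library with no strand information, and in the 4 *mec-3* strains 97.7% to 98.4% did. Replicates also differed more in the first kind. The chi-square of a replicate pair over genes, divided by its degrees of freedom, was 94.2 to 228 there and 7.08 to 17.03 in the *mec-3* strains. The *mbl-1* gene total was 26.2 to 50.2 CPM in the 6 *mbl-1(-)* libraries and 40.3 to 59.6 CPM in the 6 libraries of their backgrounds, and since *tm1563* removes a single exon this total is a weak check of the label. In whole animals, fewer cells of a type and less RNA per cell cannot be told apart.

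*irg-5*, an infection response gene under PMK-1 control, had the widest range of the 6. It had 7.09 and 9.76 CPM in *mbl-1(-)* animals, against 31.8 and 22.2 CPM in the wild type. It had 17.4 and 35.7 CPM in the *mec-7(u278)* double mutants, against 188 and 210 CPM in *mec-7(u278)* itself. It had 13.1 and 14.5 CPM in the *mec-3(unk206)* double mutants, against 129 and 110 CPM in *mec-3(unk206)*. Every *mbl-1(-)* library was thus below both libraries of its own background. The fitted log2 fold change was -1.72 (SE 0.38) over the wild type, a level 3.3-fold lower, -3.06 (SE 0.52) over *mec-7(u278)*, 8.35-fold lower, and -3.22 (SE 0.17) over *mec-3(unk206)*, 9.28-fold lower. The backgrounds themselves were far apart, so that the *mec-7(u278)* double mutants, at 26.5 ± 12.9 CPM, overlapped the wild type, at 27.01 ± 6.8 CPM (SD, n = 2 each). The *mec-3* strains with *uIs134* had 178 and 134 CPM in *mec-3(syb8382)* and 607 and 344 CPM in *mec-3(u184)*, the highest libraries of all. From the lowest to the highest of the 16 libraries *irg-5* spanned 85.7-fold.

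*irg-4*, another infection response gene with a CUB-like domain, had 42.6 and 63.5 CPM in *mbl-1(-)* animals, against 114 and 163 CPM in the wild type. In the *mec-7(u278)* double mutants it had 71.2 and 189 CPM, against 299 and 362 CPM in *mec-7(u278)* itself. In the *mec-3(unk206)* double mutants it had 78.9 and 78.0 CPM, against 87.8 and 82.4 CPM in *mec-3(unk206)*. The groups were apart in all 3 pairs, but in the last pair by a few CPM only. The log2 fold changes were -1.40 (SE 0.33) over the wild type, -1.50 (SE 0.60) over *mec-7(u278)* and -0.22 (SE 0.14) over *mec-3(unk206)*. Replicates of the *mec-7(u278)* double mutants differed 2.66-fold, the widest replicate gap of this gene. *mec-7(u278)* held its highest level, 330 ± 44.5 CPM (SD, n = 2), above the libraries of every other strain.

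*F55G11.8*, a CUB-like gene, showed the tightest replicates, which differed at most 1.31-fold in any strain. It had 38.4 and 35.9 CPM in *mbl-1(-)* animals, against 75.9 and 68.3 CPM in the wild type. It had 44.7 and 39.3 CPM in the *mec-7(u278)* double mutants, against 70.7 and 59.95 CPM in *mec-7(u278)* itself, and 21.6 and 16.5 CPM in the *mec-3(unk206)* double mutants, against 51.9 and 64.2 CPM in *mec-3(unk206)*. All 6 *mbl-1(-)* libraries were below all 6 libraries of the 3 backgrounds. The log2 fold changes were -1.01 (SE 0.18), -0.80 (SE 0.28) and -1.70 (SE 0.17), that is 2.01-fold, 1.75-fold and 3.26-fold lower. Of the 8 strains, the 3 with *mbl-1(-)* held the 3 lowest means.

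**Figure D1:**
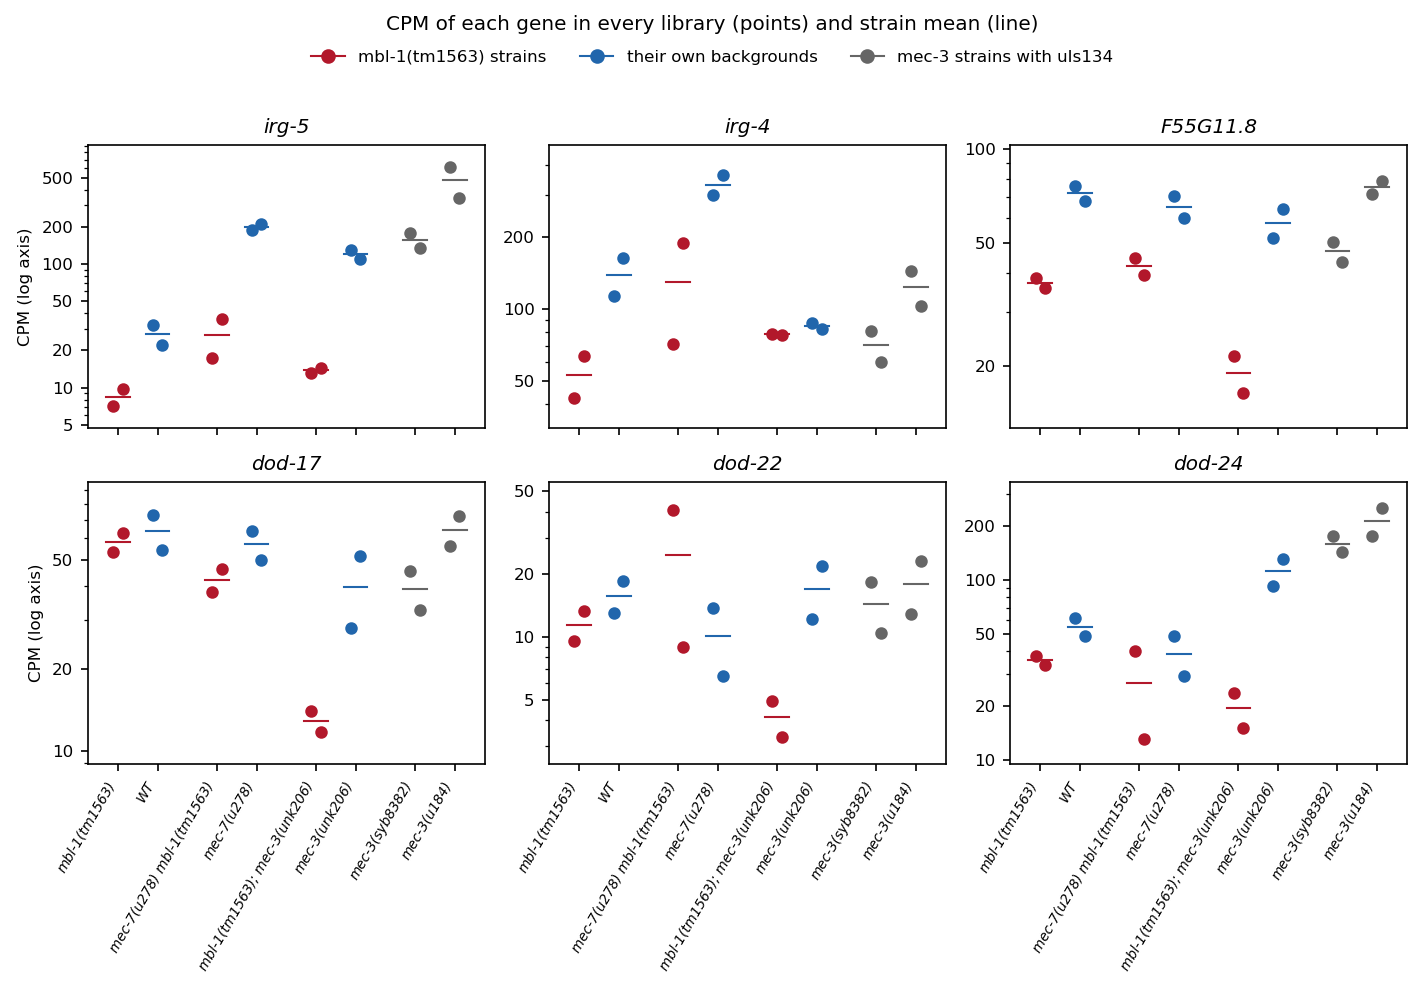
CPM of each of the 6 genes (log axis) in every library of the 8 strains, with a point per library and a line at the strain mean. Red marks *mbl-1(tm1563)* strains, blue the background to the right of each, and grey the *mec-3* strains with *uIs134*. For *irg-5*, *irg-4* and *F55G11.8* each red pair lies below the blue pair beside it, whereas for *dod-22* the red points of the *mec-7(u278)* double mutants are spread from 8.94 to 40.8 CPM.

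The values of the *dod* genes varied with the background. *dod-17* had 53.3 and 62.8 CPM in *mbl-1(-)* animals, against 73.1 and 54.2 CPM in the wild type, and these overlapped. It had 38.1 and 46.3 CPM in the *mec-7(u278)* double mutants, against 63.6 and 50.1 CPM in *mec-7(u278)* itself, and 13.95 and 11.7 CPM in the *mec-3(unk206)* double mutants, against 28.2 and 51.6 CPM in *mec-3(unk206)*. Only the last pair was apart by a wide margin. The log2 fold changes were -0.18 (SE 0.28), -0.58 (SE 0.31) and -1.73 (SE 0.22), the last a level 3.31-fold lower. Over the wild type the value took the other sign, 0.13 without the first wild-type replicate and 0.08 without the first *mbl-1(-)* replicate.

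*dod-22*, the gene with the fewest reads, had 9.60 and 13.4 CPM in *mbl-1(-)* animals, against 13.03 and 18.6 CPM in the wild type. It had 40.8 and 8.94 CPM in the *mec-7(u278)* double mutants, against 13.7 and 6.51 CPM in *mec-7(u278)* itself. The gene had 4.93 and 3.33 CPM in the *mec-3(unk206)* double mutants, against 12.2 and 21.97 CPM in *mec-3(unk206)*. The groups overlapped in the first pairs and were apart in the *mec-3(unk206)* pair, whose double mutants held the lowest level of all strains. The log2 fold changes were -0.48 (SE 0.34), 1.13 (SE 0.76) and -2.14 (SE 0.26). The positive value over *mec-7(u278)* rested on the first replicate of the double mutants, and without that library it was -0.22. Replicates of this gene differed up to 4.57-fold.

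*dod-24* had 37.7 and 33.8 CPM in *mbl-1(-)* animals, against 61.4 and 48.6 CPM in the wild type. It had 40.1 and 13.1 CPM in the *mec-7(u278)* double mutants, against 48.6 and 29.1 CPM in *mec-7(u278)* itself, and 23.6 and 15.1 CPM in the *mec-3(unk206)* double mutants, against 92.4 and 131 CPM in *mec-3(unk206)*. The groups were apart in the wild-type and *mec-3(unk206)* pairs and overlapped in the *mec-7(u278)* pair. The log2 fold changes were -0.68 (SE 0.22), -0.72 (SE 0.56) and -2.62 (SE 0.20), the last a level 6.17-fold lower. *mec-3(syb8382)* and *mec-3(u184)* held the highest levels, 159 ± 23.1 and 214 ± 53.5 CPM (SD, n = 2 each), and *mec-3(unk206)* came next at 112 ± 27.3 CPM (SD, n = 2). Each of the 3 *mec-3* strains without *mbl-1(-)* was above all 4 strains with no *mec-3* allele. These groups also differ in the kind of library, and the allele and the kind cannot be told apart.

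Ranked by strain mean, neighbours in the order were often within each other's spread. The number of the 7 neighbouring pairs whose libraries overlapped was 1 for *irg-5*, 3 for *dod-24*, 4 for *irg-4*, 4 for *F55G11.8*, 5 for *dod-17* and 6 for *dod-22*. *irg-5* was the gene whose strains were best separated, and for *dod-22* only the last strain, the *mec-3(unk206)* double mutants, was apart from its neighbour.

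Counted over the 6 genes, 4 of 6 had both *mbl-1(-)* libraries below both wild-type libraries, beside 8.69% of the 14493 genes tested. In the *mec-7(u278)* pair 4 of 6 did, beside 19% of 15221 genes, and in the *mec-3(unk206)* pair 6 of 6 did, beside 31.3% of 15042 genes. The median log2 fold change of the 6 genes was -0.84, -0.76 and -1.93, against -0.03, -0.05 and -0.01 for all genes tested. Since the genes were chosen on these comparisons, nothing is read from the counts, and no test of the 6 is given there. Over all genes, edgeR's quasi-likelihood test at a Benjamini-Hochberg adjusted p under 0.05 called 0% in the wild-type pair and 0% in the *mec-7(u278)* pair, where 161 and 560 genes had an unadjusted p under 0.05 and DESeq2 called 20 and 16 genes. In the *mec-3(unk206)* pair it called 22% of all genes lower and 14.4% higher, the shares against which the counts of other genes called in this pair are to be read.

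**Figure D2:**
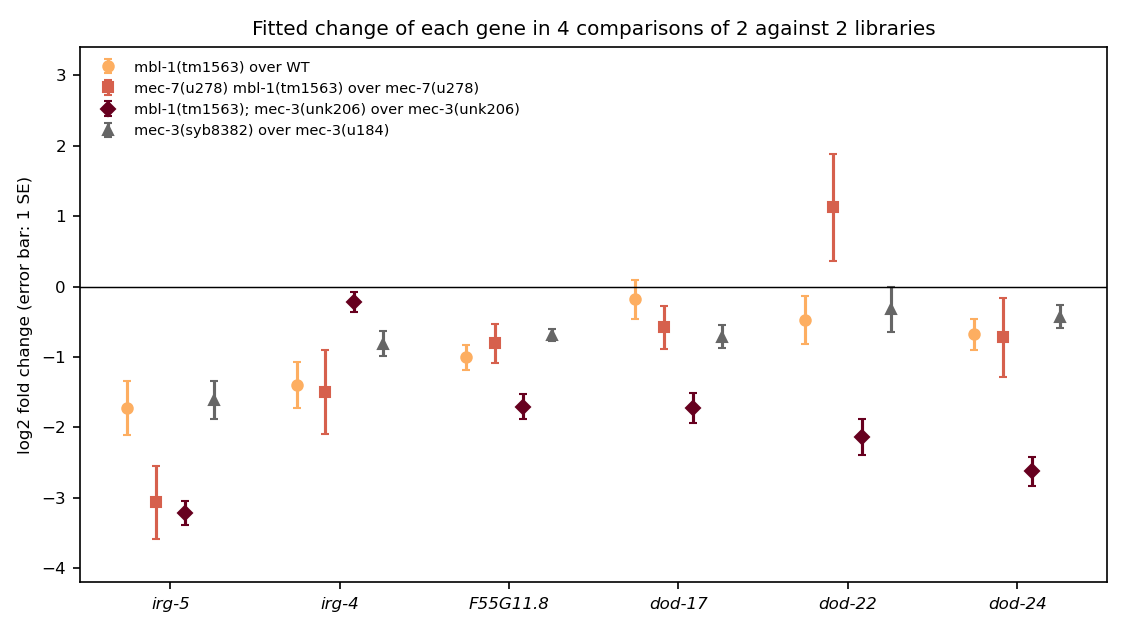
Fitted log2 fold change of each gene (point) with 1 SE (bar) in the 3 *mbl-1(tm1563)* comparisons and in *mec-3(syb8382)* over *mec-3(u184)*, each from 2 against 2 libraries. All values but that of *dod-22* over *mec-7(u278)*, 1.13, lie below 0, and *irg-5* has the lowest value in each comparison.

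How far the *mbl-1(-)* values differed between backgrounds was fitted as an interaction. In the *mec-7(u278)* background minus the wild type the difference was -1.33 (SE 0.65) for *irg-5*, 1.65 (SE 0.95) for *dod-22* and between -0.38 and 0.22 for the other 4. In the *mec-3(unk206)* background minus the wild type it was -1.94 (SE 0.41) for *dod-24*, -1.62 (SE 0.54) for *dod-22*, -1.53 (SE 0.44) for *dod-17*, -1.47 (SE 0.36) for *irg-5* and -0.68 (SE 0.27) for *F55G11.8*, whereas *irg-4* had 1.22 (SE 0.34), the other sign. These differences are built from the comparisons on which the genes were chosen and are descriptions with no test. The background and the kind of library cannot be told apart in the second interaction.

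One comparison used libraries that none of the *mbl-1(-)* comparisons did, *mec-3(syb8382)* over *mec-3(u184)*, with *uIs134* in both. edgeR's test called 4 of the 6 genes lower, beside 22.7% of the 14827 genes tested. *irg-5* had 178 and 134 CPM in *mec-3(syb8382)*, against 607 and 344 CPM in *mec-3(u184)* (log2 fold change -1.61, SE 0.26, edgeR adjusted p = 0.0041). *irg-4* had 80.9 and 59.96 CPM in *mec-3(syb8382)*, against 144 and 103 CPM in *mec-3(u184)* (-0.81, SE 0.18, edgeR adjusted p = 0.0124). *F55G11.8* had 50.3 and 43.5 CPM in *mec-3(syb8382)*, against 71.9 and 79.2 CPM in *mec-3(u184)* (-0.69, SE 0.08, edgeR adjusted p = 0.00169). For *dod-17* the values were 45.5 and 32.7 CPM in *mec-3(syb8382)* and 56.3 and 71.9 CPM in *mec-3(u184)* (-0.71, SE 0.16, edgeR adjusted p = 0.0131). *dod-24* had 175 and 142 CPM in *mec-3(syb8382)*, against 176 and 252 CPM in *mec-3(u184)* (-0.43, SE 0.17, edgeR adjusted p = 0.0774), and *dod-22* had 18.3 and 10.5 CPM in *mec-3(syb8382)*, against 12.96 and 23.1 CPM in *mec-3(u184)* (-0.33, SE 0.32, edgeR adjusted p = 0.439). The groups overlapped for *dod-22* and were apart for the others. The share of all genes with groups apart was not counted in this comparison, so nothing is read from it. Markers of several cell types moved in this comparison too. All 9 intestine markers were called lower, with a median log2 fold change of -0.57, beside -0.70 for the 6 genes. The medians were -1.78 for the hypodermis, with 3 of 4 markers called lower and 1 higher, -0.70 for the pharynx, with 1 of 4 called lower, and -0.42 for neurons, with 5 of 8 called lower. The 4 germ line markers were called higher, beside 23.3% of all genes, with a median of 0.49. The part of these cell types in the result was not tested. Leaving out any single library gave 3 to 6 called of the 6, and without the second *mec-3(u184)* replicate *dod-17* was no longer called (edgeR adjusted p = 0.0623). With no filter on low counts 2 were called, *irg-4* and *dod-17* having an edgeR adjusted p of 0.0583 and 0.0631, and 0 were when the spread was estimated over all 16 libraries.

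The *mec-3* strains were also set against *mec-3(unk206)*, whose libraries the *mbl-1(-)* comparison shares and whose reporter insertion differs, so that allele and insertion cannot be told apart. As the genes were chosen with those shared libraries in view, the calls of the 6 below are descriptions and no independent support. *mec-3(u184)* was higher for 5 of the 6 genes by edgeR's test, beside 14.9% of all genes called higher. The log2 fold changes were 2.12 (SE 0.23) for *irg-5*, 1.07 (SE 0.18) for *dod-24*, 0.82 (SE 0.22) for *dod-17*, 0.66 (SE 0.15) for *irg-4* and 0.51 (SE 0.11) for *F55G11.8*, with edgeR adjusted p of 0.000352, 0.00309, 0.0231, 0.0126 and 0.0104. *dod-22* had 0.21 (SE 0.28). With the spread of all 16 libraries 0 of the 6 were called. *dod-17* was not called by DESeq2 (adjusted p = 0.162) or by edgeR with no filter on low counts (adjusted p = 0.0624). Without the first *mec-3(u184)* replicate *irg-4* was not called (edgeR adjusted p = 0.183), and without the second *F55G11.8* was not (edgeR adjusted p = 0.123). In *mec-3(syb8382)* over *mec-3(unk206)* edgeR called *dod-24* alone (0.63, SE 0.15, adjusted p = 0.0218), beside 5.49% of all genes called higher, and *irg-5* had 0.50 (SE 0.15, adjusted p = 0.0563). The call of *dod-24* was lost without the first *mec-3(syb8382)* replicate (edgeR adjusted p = 0.104) and without the first *mec-3(unk206)* replicate (edgeR adjusted p = 0.0524).

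*mec-7(u278)* was set against the wild type with the same reporter, in libraries that the *mbl-1(-)* comparisons use too. Calls of the 6 in comparisons that reuse those libraries are not independent of how the genes were chosen, and are descriptions. Among the 6 chosen genes *irg-5* and *irg-4* were higher, with log2 fold changes of 2.65 (SE 0.38) and 1.05 (SE 0.36). The *irg* genes outside the choice, listed below, had a median of -0.49, with 4 of 6 below 0. The other 4 chosen genes had values between -0.92 and -0.39. Both *mec-7(u278)* libraries were above both wild-type libraries for *irg-5* and *irg-4*, and below both for *dod-24*. The share of all genes apart in this way was not counted. edgeR's quasi-likelihood test called 0 of the 6, beside 0.0204% of the 14710 genes tested, and 1037 genes had an unadjusted p under 0.05. DESeq2 called 92 genes, *irg-5* among them (adjusted p = 5.21e-07). In the *mec-7(u278)* double mutants over *mbl-1(-)*, *irg-5* had 1.37 (SE 0.54) and *irg-4* 1.02 (SE 0.62), with 0 of the 6 called by edgeR, beside 0% of all genes, where 2293 genes had an unadjusted p under 0.05 and DESeq2 called 298. Without the second replicate of the double mutants the *irg-4* value was 0.00.

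The stretch of chromosome IV from *dod-24* to *dod-17*, 12940106 to 12978343, holds 13 annotated protein-coding genes and pseudogenes, 4 of them described above. Of the 9 others, 5, 4 and 5 had enough reads to be tested over the wild type, *mec-7(u278)* and *mec-3(unk206)*. They had a median log2 fold change of -0.35, -0.08 and -1.35. Of these genes edgeR called 0, 0 and 3 lower, beside 0%, 0% and 22% of all genes. Among the 3, *F55G11.7* had 0.0880 and 0.0444 CPM in the *mec-3(unk206)* double mutants, against 0.537 and 0.490 CPM in *mec-3(unk206)*. The pseudogene WBGene00000021 had 0.792 and 1.64 CPM, against 2.28 and 3.52 CPM. Both calls rest on low levels, and the median of -1.35 is the value of this pseudogene. *F55G11.4*, a CUB-like gene next to *dod-17*, had 9.73 and 8.57 CPM in the *mec-3(unk206)* double mutants, against 22.1 and 25.1 CPM in *mec-3(unk206)* (-1.46, SE 0.18, edgeR adjusted p = 8.24e-06). *F55G11.2*, beside *dod-22*, had 8.19 and 8.88 CPM in the same double mutants, against 10.2 and 11.7 CPM (-0.46, SE 0.19, edgeR adjusted p = 0.0614). *F55G11.1*, near *dod-24*, was read at 0.844 to 2.33 CPM in every library and had 0.17 (SE 0.33, edgeR adjusted p = 0.716). The genes of this stretch thus did not all have the same value.

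**Figure D3:**
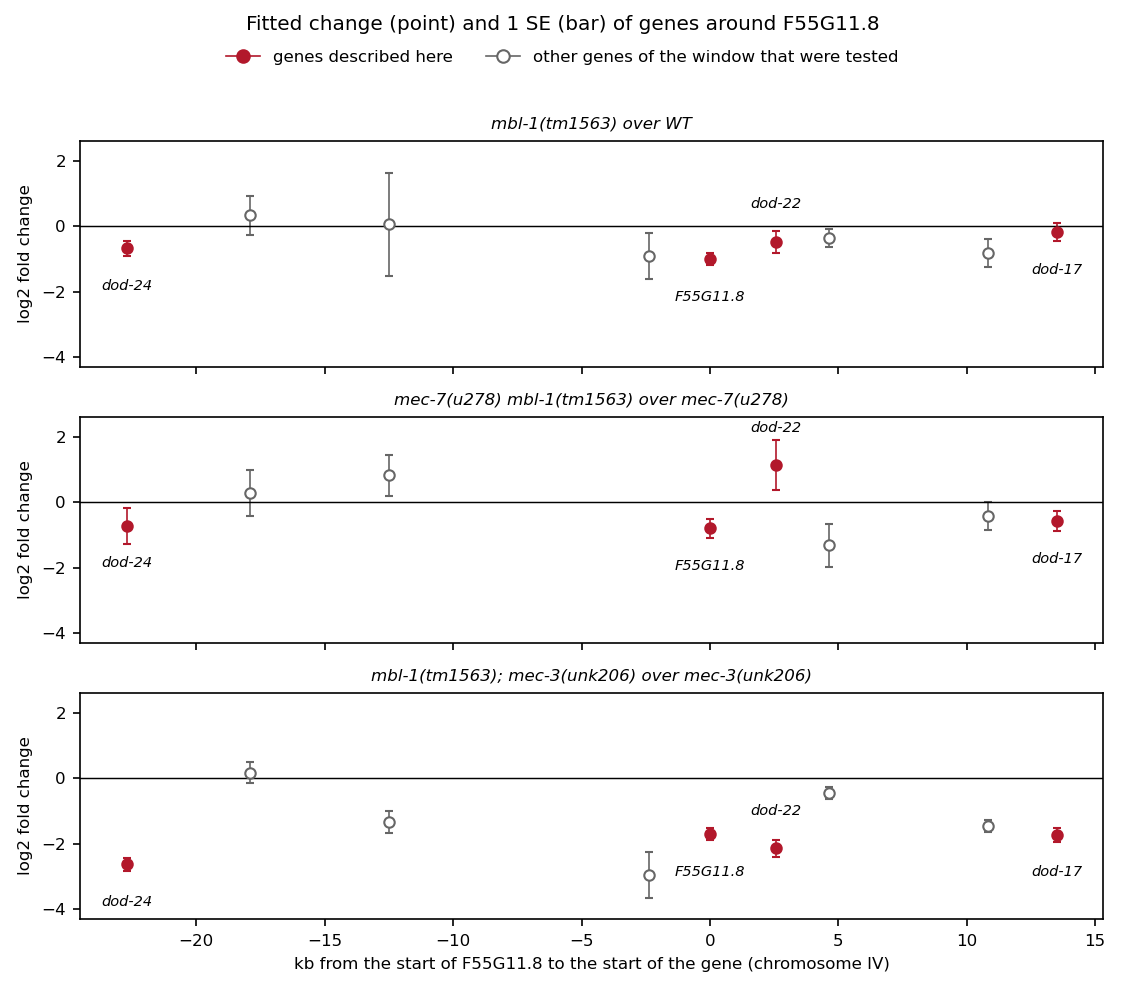
Log2 fold change (point) with 1 SE (bar) of the tested genes between *dod-24* and *dod-17* against the distance in kb from the start of *F55G11.8*, for the 3 *mbl-1(tm1563)* comparisons. Red marks the genes described here and open grey circles the other tested genes, of which 3 of 5 were called lower over *mec-3(unk206)*, beside 22% of all genes. Of those called, *F55G11.7* and the pseudogene WBGene00000021 had at most 0.82 and 3.52 CPM in any library.

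A list of 10 further genes of the CUB-like family, drawn up with earlier results known, was followed as well. It includes *F55G11.4*, named above, and *irg-6* and *dod-21*, which the *irg* and *dod* lists below also hold. In the *mec-3(unk206)* pair all 8 that could be tested fell, beside 22% of all genes, with a median log2 fold change of -1.66 against -0.01 for all genes. *C17H12.8* had 26.2 and 18.8 CPM in the double mutants, against 109 and 176 CPM in *mec-3(unk206)* (-2.75, SE 0.21, edgeR adjusted p = 6.95e-08). *K08D8.5* had 2.86 and 2.53 CPM, against 13.7 and 20.4 CPM (-2.75, SE 0.23, edgeR adjusted p = 1.64e-07), and *K10D11.2* had under 1 CPM in all libraries of this pair. In the wild-type pair 6 of 8 were below 0, with a median of -0.73, and in the *mec-7(u278)* pair 9 of 9 were, with a median of -0.43, and edgeR called 0 in both. *C32H11.4* had the lowest value in the wild-type pair, with 30.5 and 25.1 CPM in *mbl-1(-)* animals, against 64.5 and 57.1 CPM in the wild type (-1.18, SE 0.19, edgeR adjusted p = 1). In these pairs the listed genes lay below 0, with 2 exceptions in the wild-type pair, *C17H12.6* at 0.12 and *K08D8.4* at 0.02. This was not particular to *mbl-1(-)*. In *mec-7(u278)* over the wild type 7 of 9 were below 0, with a median of -1.22. In the *mec-7(u278)* double mutants over *mbl-1(-)* 7 of 8 were, with a median of -0.91. The median was -0.44 in *mec-3(syb8382)* over *mec-3(u184)*. Over *mec-3(unk206)* it was 0.29 for *mec-3(u184)* and -0.21 for *mec-3(syb8382)*.

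The other *irg* and *dod* genes went several ways. Of the *irg* genes 3 of 5 fell and 1 rose in the *mec-3(unk206)* pair, beside 22% and 14.4% of all genes. *irg-8* had 238 and 242 CPM in the double mutants, against 379 and 590 CPM in *mec-3(unk206)* (-1.11, SE 0.17, edgeR adjusted p = 7.31e-05), and *irg-7*, known to be needed for the response to pathogens, had 809 and 892 CPM against 1770 and 1627 CPM (-1.10, SE 0.14, edgeR adjusted p = 1.59e-05). *irg-3* rose by 0.44 (SE 0.15, edgeR adjusted p = 0.027). Of the *dod* genes 2 of 6 fell and 2 rose, beside the same 22% and 14.4%, among them *dod-18* (1.34, SE 0.29, edgeR adjusted p = 0.0016) and *dod-19* (-0.51, SE 0.14, edgeR adjusted p = 0.00971). edgeR called 0 genes of either list in the pairs on wild-type or *mec-7(u278)* background.

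A list of 9 genes of the p38 pathway held *tir-1*, *nsy-1*, *sek-1* and *pmk-1* of the cascade, and *vhp-1*, *atf-7*, *nipi-3*, *tpa-1* and *dkf-2* beside them. Of the 9, 2 were called lower in the *mec-3(unk206)* pair, a share near the 22% of all genes. They were *tir-1*, the adaptor at the top of the cascade (-0.86, SE 0.15, edgeR adjusted p = 0.000242), and *nsy-1*, the first kinase (-0.53, SE 0.16, edgeR adjusted p = 0.0125). The kinase genes *sek-1* and *pmk-1* had -0.32 (SE 0.15) and -0.15 (SE 0.17). The list's median was 0.03, -0.48 and -0.32 over the wild type, *mec-7(u278)* and *mec-3(unk206)*, with 0 called in the first pairs. Of 11 genes of the insulin pathway and its targets, 3 fell and 4 rose in the *mec-3(unk206)* pair, beside 22% and 14.4% of all genes. *mtl-1*, a metallothionein gene, had the lowest value (-1.85, SE 0.34, edgeR adjusted p = 0.000358) and *ins-7*, an insulin-like peptide gene, the highest (1.57, SE 0.23, edgeR adjusted p = 4.7e-05). Of 12 transcription regulators of the gut and the innate response, 7 fell there and 0 rose, against the same shares, led by *elt-2*, the GATA factor of intestinal identity (-1.33, SE 0.16, edgeR adjusted p = 9.3e-06), *pqm-1* (-1.28, SE 0.15, edgeR adjusted p = 4.35e-06) and *elt-4* (-1.24, SE 0.39, edgeR adjusted p = 0.0197).

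Among other effectors, lysozymes fell and rose in the *mec-3(unk206)* pair, with 4 of 13 called lower and 2 higher, not far from the 22% and 14.4% of all genes. *lys-2* had 103 and 102 CPM in the double mutants, against 183 and 284 CPM in *mec-3(unk206)* (-1.28, SE 0.17, edgeR adjusted p = 2.14e-05). *lys-5* had 2.69 and 3.24 CPM against 0.671 and 0.401 CPM (2.35, SE 0.34, edgeR adjusted p = 4.77e-05). Of 16 saposin-like and thaumatin-like genes 8 fell and 0 rose, beside 22% and 14.4% of all genes, with *thn-1* at -1.45 (SE 0.22, edgeR adjusted p = 5.93e-05) and *spp-4* at -1.15 (SE 0.15, edgeR adjusted p = 1.64e-05). edgeR called 0 genes of these lists in the other *mbl-1(-)* pairs.

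Markers of the intestine, where these genes are known to act, were read in every library, and the libraries of a pair were apart in their summed level in the *mec-3(unk206)* pair alone. *elt-2*, a regulator named above, is among these markers. The 9 markers summed to 21302 and 25974 CPM in *mbl-1(-)* animals, against 22709 and 26736 CPM in the wild type, a log2 ratio of -0.06. They summed to 5733 and 12112 CPM in the *mec-7(u278)* double mutants, against 10480 and 19199 CPM in *mec-7(u278)*, a log2 ratio of -0.73. They summed to 9033 and 7906 CPM in the *mec-3(unk206)* double mutants, against 19105 and 14234 CPM in *mec-3(unk206)*, a log2 ratio of -0.98. In the wild-type pair 7 of the 9 markers were below 0, with a median log2 fold change of -0.11, beside -0.84 for the 6 genes, and in the *mec-7(u278)* pair 9 of 9 were, with a median of -0.91, beside -0.76. In the *mec-3(unk206)* pair all 9 markers fell, by edgeR's test, with log2 fold changes between -1.34 and -0.41 and a median of -1.02, beside -1.93 for the 6 genes. The medians of other cell types also lay away from 0. Over *mec-7(u278)* the median was -1.13 for the hypodermis, -1.03 for the pharynx, -0.62 for neurons and 1.001 for the germ line. In the wild-type pair it was 1.203 for the pharynx and between -0.10 and 0.30 for hypodermis, neurons, body wall muscle and germ line. The pharynx markers summed to 369 and 49.6 CPM in *mbl-1(-)* animals, against 56.0 and 87.9 CPM in the wild type, so their value rested on the first *mbl-1(-)* replicate. edgeR called 0 of the markers of these cell types in both pairs. In the *mec-3(unk206)* pair the hypodermis had a median of 0.46, with 2 of 4 markers called higher, the germ line 0.14, with 1 of 4 called higher, and the pharynx -0.33, with 1 of 4 called lower. The part of the intestine's RNA as a whole, or of any other cell type, in the values of the 6 genes was not tested.

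**Figure D4:**
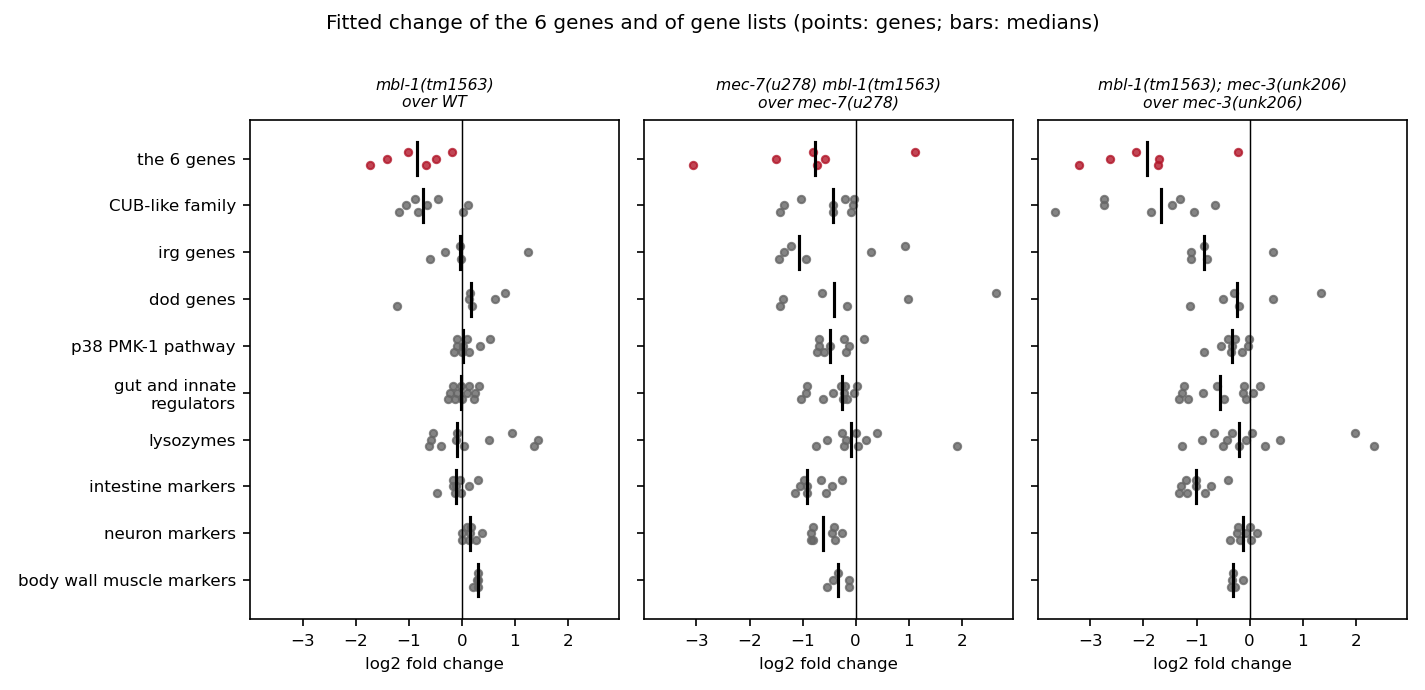
Log2 fold change of the 6 genes (red), of gene lists and of cell type markers (grey, a point per tested gene), with a bar at each median, in the 3 *mbl-1(tm1563)* comparisons. Intestine markers have a median of -0.11, -0.91 and -1.02 from left to right, beside -0.84, -0.76 and -1.93 for the 6 genes, while neuron markers have 0.15, -0.62 and -0.12.

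Signs of age and of reproduction differed widely between the replicates of the strains with no *mec-3* allele, and less between those of the *mec-3* strains. The vitellogenin genes, yolk genes of the adult intestine, summed to 13121 and 352 CPM in *mbl-1(-)* animals, against 4697 and 14693 CPM in the wild type. The major sperm protein genes summed to 1371 and 12.5 CPM in *mbl-1(-)* animals, against 191 and 821 CPM in the wild type. In the *mec-7(u278)* double mutants the vitellogenin sum was 41894 and 23519 CPM, against 20964 and 10905 CPM in *mec-7(u278)* itself, and in the *mec-3(unk206)* double mutants 21345 and 22894 CPM, against 42596 and 38353 CPM in *mec-3(unk206)*. The major sperm protein sum was 7241 and 3972 CPM in the *mec-7(u278)* double mutants, against 3698 and 874 CPM in *mec-7(u278)* itself. It was 4613 and 4966 CPM in the *mec-3(unk206)* double mutants, against 4804 and 5303 CPM in *mec-3(unk206)*. The part of stage in the levels of the 6 genes was not tested.

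The genes did not all vary together. Over the 16 libraries *F55G11.8* had the highest Pearson correlation with the mean standardized profile of the 6 genes, itself included (r = 0.96) and *irg-4* the lowest (r = 0.45). Pairwise r was 0.85 between *F55G11.8* and *dod-17*, 0.70 between *irg-5* and *dod-24*, and -0.16 between *irg-4* and *dod-24*. When only the difference between the replicates of each strain was taken, over the 8 strains, *irg-5* went with *irg-4* (r = 0.82) and against *dod-24* (r = -0.78), while *dod-22* went with *dod-24* (r = 0.92). The 16 points share their strains, and the values are descriptions. The sign of each replicate difference comes from the replicate numbers, which no label ties to a shared culture. Another numbering would give other values of r over the 8 strains.

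Of 10495 genes with a mean of at least 5 CPM, the 8 outside the set whose log2 CPM over the 16 libraries was most like the mean profile were *clec-186*, *catp-3*, *C05D12.3*, *K08D8.5*, *F17C11.6*, *faah-3*, *clec-51* and *lipl-5*, with r between 0.80 and 0.85. *clec-186* and *clec-51* are C-type lectin genes, *catp-3* codes for a cation-pumping ATPase subunit and *lipl-5* for a lipase. *lipl-5* had 218 and 182 CPM in the *mec-3(unk206)* double mutants, against 818 and 770 CPM in *mec-3(unk206)*, a log2 fold change of -2.09 (SE 0.15), and -0.33 (SE 0.24) in *mbl-1(-)* animals over the wild type. *catp-3* had 1.80 and 3.998 CPM in the same double mutants, against 24.7 and 25.4 CPM (-3.21, SE 0.25), and -0.92 (SE 0.24) over the wild type. The smallest fall of the 8 in those double mutants was that of *faah-3* (-0.71, SE 0.155), and *C05D12.3* had 0.03 (SE 0.166) over the wild type. Since the 8 were picked for likeness over these same libraries, their falls are part of the choice and add no support. With the differences between replicates as the measure, 0 of these 8 were among the top 8.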

How the data were processed

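RNA-seq libraries of whole L4 animals, 2 per strain and 16 in all, were analysed. The authors aligned paired reads with STAR 2.7.10 and deposited, for each library, whole-number counts per gene, unstranded and for each strand, not normalized. The unstranded counts were used. Rows that name no gene held 5.91% to 8.16% of reads and were left out. Gene positions came from the WBcel235 annotation. CPM were counts divided by gene totals, and fits used TMM factors, which ranged from 0.836 to 1.18. Each comparison was fitted on its own 4 libraries, or on 8 for interactions, with edgeR 4.0.16 (filterByExpr, glmQLFit, glmQLFTest, R 4.3.3) and Benjamini-Hochberg adjustment over all genes tested at 0.05. DESeq2 1.42.0, RLE size factors, other filters, a fit of all 16 libraries, additive fits, a replicate block and leaving out each library were tried. Each SE was the absolute log2 fold change divided by the square root of the F statistic of edgeR's test. That test shares information on spread across genes, so an SE is not the spread of a gene's own libraries. Scripts were tested on simulated data. Correlations used log2 CPM with a prior of 0.5. The genes and lists were chosen with earlier results of these data known. From each list, up to 3 genes with the largest rise and 3 with the largest fall could be named, among those past the threshold whose groups did not overlap, or else the gene with the largest change; the chromosome IV neighbours, *sek-1*, *pmk-1* and the exceptions named were added after their values were seen.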

Additional observations from a re-analysis of the deposited data

How the results depend on the processing

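In the comparisons other than those of *mbl-1(-)* with its backgrounds, 274 alternative values of a gene's log2 fold change kept their direction and their side of the threshold, 19 were no longer past it, 13 became so and 12 changed sign. In the *mbl-1(-)* comparisons and interactions, on which the genes were chosen, calls of the 6 were not counted. Of the alternative values there, 318 moved by no more than 1 SE, 39 by more and 15 changed sign. *irg-5*, *F55G11.8* and *dod-24* were below 0 in each of the 12 alternatives of each *mbl-1(-)* comparison, and so was *irg-4*. Interaction alternatives were chosen after seeing the data. The cause of each change named here was not tested.

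With DESeq2 the genes called were 20 in the wild-type pair and 16 in the *mec-7(u278)* pair, 92 with 1 of the 6 for *mec-7(u278)* over the wild type, 298 for the *mec-7(u278)* double mutants over *mbl-1(-)*, and 4 and 536 for the interactions of the *mec-7(u278)* and *mec-3(unk206)* backgrounds. It called 2 of the 6 in *mec-3(syb8382)* over *mec-3(unk206)*, beside 1679 of the 14775 genes tested, as did RLE size factors, beside 2100. One fit of all 16 libraries, which takes its spread from the strains with wide replicates too, called 2, 2 and 29 genes in the wild-type, *mec-7(u278)* and *mec-3(unk206)* pairs, and 8, 17 and 5 genes in *mec-3(syb8382)* over *mec-3(u184)*, *mec-3(u184)* over *mec-3(unk206)* and *mec-3(syb8382)* over *mec-3(unk206)*, with 0 of the 6 in each of these last 3. It called 16 genes for *mec-7(u278)* over the wild type, 5942 with 2 of the 6 for the *mec-7(u278)* double mutants over *mbl-1(-)*, and 2 for the first interaction. One additive fit of the *mbl-1(-)* difference over 3 backgrounds called 5 genes, and *dod-22* had -0.46 in it. Over the backgrounds without *mec-3(unk206)* alone *dod-22* had 0.33. With no filter on low counts 5387 genes with 2 of the 6 were called in *mec-3(syb8382)* over *mec-3(u184)*. The same setting called 485 genes with 1 of the 6 for *mec-7(u278)* over the wild type, where at least 10 counts in every library left 0 genes. The filter of at least 10 counts gave *F55G11.8* 0.0172 in the *mec-7(u278)* double mutants over *mbl-1(-)*. The difference of *dod-24* between the *mec-7(u278)* background and the wild type was 0.0729 with RLE size factors, 0.0728 with DESeq2 and 0.0600 with at least 10 counts.

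Leaving out each library in turn, the genes called ranged from 0 to 349 in the *mec-7(u278)* pair, the highest without the second replicate of the double mutants. They ranged from 3832 to 6951 in *mec-3(syb8382)* over *mec-3(u184)*, from 2085 to 5737 in *mec-3(u184)* over *mec-3(unk206)*, from 1097 to 2319 with 0 to 2 of the 6 in *mec-3(syb8382)* over *mec-3(unk206)*, from 0 to 193 with 0 to 1 of the 6 in *mec-7(u278)* over the wild type, from 0 to 2094 in the *mec-7(u278)* double mutants over *mbl-1(-)*, and from 0 to 1353 in the second interaction, the highest without the first *mbl-1(-)* replicate. Log2 fold changes that changed sign ranged from -0.41 to 0.13 for *dod-17* in the wild-type pair, from -0.22 to 1.80 for *dod-22* in the *mec-7(u278)* pair, from -0.75 to 0.15 for *dod-22* in *mec-3(syb8382)* over *mec-3(u184)* and from -0.25 to 0.66 in *mec-3(u184)* over *mec-3(unk206)*. In *mec-3(syb8382)* over *mec-3(unk206)* they ranged from -0.57 to 0.30 for *dod-22*, from -0.23 to 0.53 for *dod-17* and from -0.38 to 0.0217 for *irg-4*. In the *mec-7(u278)* double mutants over *mbl-1(-)* they ranged from -0.64 to 1.40 for *dod-22* and from -0.00098 to 1.55 for *irg-4*, and in the first interaction from -1.05 to 0.50 for *irg-4* and from -0.94 to 0.54 for *dod-24*. A fit that leaves a strain with 1 library assumes that it varies like the other.

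A replicate block was taken from the numbers of the count tables, which no label ties to a shared culture. With it 2 of the 6 were called in *mec-3(syb8382)* over *mec-3(unk206)*, beside 2989 of the 14775 genes tested. They were *irg-5* (0.49, edgeR adjusted p = 0.00629) and *dod-24*, and the block changed no other count of the 6. Counts from the second stranded column, possible in the *mec-3* strains only, changed no count of the 6. The count of promoter motifs was not run, as no sequence table was used here. With 2 libraries per strain, a difference within the spread of replicates was not detectable, above all in the strains with no *mec-3* allele.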
